A study of Mus musculus with 1470 samples.

Results

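The 7 genes described here, Trem2, Lgals3, Cd9, Fabp5, Gpnmb, Spp1 and Cd63, are often reported together in macrophages that take up lipid in fatty liver, adipose tissue and atherosclerotic plaque. They were chosen by symbol, and all 7 of 7 symbols were found among the 14915 gene rows of the deposited table. Livers of 6 male wild-type C57BL/6J mice gave 1470 single non-parenchymal cells, profiled by the full-length Smart-seq2 method. Of these mice, 3 (ND1 to ND3, 718 cells) ate a normal chow diet and 3 (HFD1 to HFD3, 752 cells) ate a high-fat diet, with 60% of calories from fat, for 9 weeks from 5 weeks of age. No transgene or deletion was named for any mouse, and the gate used for the mouse cells is not given in the sources used here. Cell names were unique, and each mouse had its own kind of cell name (a prefix of its own, or no prefix in HFD2). The labels do not say what the prefix stands for, so mouse and any batch behind it cannot be told apart.

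TREM2 is a surface receptor that binds lipids and lipoproteins and signals through the adaptor DAP12. CD9 and CD63 are tetraspanins of the plasma membrane and of endosomes and lysosomes, FABP5 carries fatty acids in the cytosol, galectin-3 (Lgals3) is a sugar-binding lectin abundant in macrophages, GPNMB is a glycoprotein of endosomes and lysosomes, and osteopontin (Spp1) is a secreted ligand of integrins and CD44. In the liver, resident Kupffer cells line the sinusoids, and macrophages derived from blood monocytes join them. Bile duct cells are a known hepatic source of osteopontin.

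The cell classes were rebuilt here by clustering without the 7 genes and were named from marker genes, with the ending "-like". Kupffer-like cells made up 16.3% of all cells, with 51 in ND1, 24 in ND2, 39 in ND3, 52 in HFD1, 29 in HFD2 and 44 in HFD3. There were 53 monocyte-derived-like cells, 7 to 13 per mouse. All 10 Kupffer markers were detected in at least 20% of the cells in both classes, so the classes were told apart by level, with a mean marker level of 9.16 to 10.9 by mouse in Kupffer-like cells against 1.17 to 4.65 in monocyte-derived-like cells. The monocyte-derived-like class held 38 macrophage-like cells and 15 conventional dendritic-like cells. The 8 other named classes held 1169 cells, and 9 cells stayed unnamed. The estimated exon reads per cell had a median of 88286 to 203077 by mouse, and monocyte-derived-like cells were deeper than Kupffer-like cells in all 6 mice. Levels are given as the mean over the cells of a mouse of log2(RPKM + 1), where RPKM is the read count scaled for transcript length and for the mapped reads of the cell. A gene was called detected in a cell at an RPKM of at least 1.

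Reads of strongly expressed genes of other classes were present in most cells, at a level that differed between genes and classes. Cd3e, a T cell receptor subunit, was at 1 RPKM or more in 69% of Kupffer-like cells, at a median of 6.41 RPKM against 1382 RPKM in T-like cells. Alb, the hepatocyte gene for albumin, reached 1 RPKM in 99.6% of Kupffer-like cells, at a median of 1172 RPKM, which was above the 146.8 RPKM of endothelial-like and the 18.5 RPKM of T-like cells. The share of detected cells was therefore read beside the share in T-like and B-like cells and beside the number of reads behind each detection. The share of cells with at least 10 estimated reads is also given. That limit was chosen after the values were seen.

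The 7 genes lie on 6 chromosomes, each as a protein-coding gene of the GENCODE annotation of GRCm38, the build named mm10 in the files. Trem2 is at chr17:48346401-48354147, Lgals3 at chr14:47367751-47386160, Fabp5 at chr3:10012548-10016607, Gpnmb at chr6:49036546-49070929, Spp1 at chr5:104435118-104441050 and Cd63 at chr10:128900989-128912822, all on the plus strand. Cd9 is at chr6:125460266-125494791 on the minus strand. RefSeq promoter windows (GRCm38.p6, 250 bases before to 50 bases after a transcript start) were found for 6 of the 7 genes, with 7 windows in all, and none was held for Fabp5. The windows of Trem2 and Lgals3 are printed because these 2 genes were the ones higher in Kupffer-like cells than in the other classes. Capitals mark the letters GAGGAAG, the core bound by PU.1-type factors of the myeloid lineage, where they occur on either strand.
Trem2, chr17:48346151-48346450, plus strand: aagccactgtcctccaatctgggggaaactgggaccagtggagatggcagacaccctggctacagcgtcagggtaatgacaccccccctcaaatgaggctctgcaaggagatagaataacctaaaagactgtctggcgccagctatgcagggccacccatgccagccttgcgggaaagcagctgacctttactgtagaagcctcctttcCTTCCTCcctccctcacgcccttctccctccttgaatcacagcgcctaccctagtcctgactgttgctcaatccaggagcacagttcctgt
Lgals3, chr14:47373610-47373909, plus strand: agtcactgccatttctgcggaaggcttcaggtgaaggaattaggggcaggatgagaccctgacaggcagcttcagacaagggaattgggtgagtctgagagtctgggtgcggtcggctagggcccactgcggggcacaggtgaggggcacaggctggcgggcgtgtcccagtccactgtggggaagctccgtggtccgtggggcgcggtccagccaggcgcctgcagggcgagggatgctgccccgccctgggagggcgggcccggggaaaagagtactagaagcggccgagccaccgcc
The motif stood on the strand opposite to Trem2 with its first base 41 bases before the start, at position -41. The Lgals3 window, which belongs to a transcript that starts inside the annotated gene, held none of the 3 motifs searched. GAGGAAG was in 3 of the 7 windows (Trem2, Cd63 and the first of the Spp1 windows) against 13.6% of all 32851 promoter windows. The AP-1 site TGACTCA was in the Gpnmb window alone against 5.20% of all windows, and the E-box CACGTG was in none against 7.15%. Both strands were searched, the motifs do not overlap one another, and other spellings of the motifs had been looked at first. A match is a description of the letters in a window and not a bound site.

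Trem2 was highest in the macrophage classes. In Kupffer-like cells its mean level was 1.79 in ND1, 0.33 in ND2, 2.4 in ND3, 0.97 in HFD1, 1.54 in HFD2 and 1.51 in HFD3. ND2 was the low mouse, and the diets overlapped. The level averaged 1.42 ± 0.71 (SD, n = 6 mice) in Kupffer-like cells, 1.12 ± 0.60 in monocyte-derived-like cells and 0.26 ± 0.24 over the other classes. It was higher in Kupffer-like cells than in the other classes by 1.17 (SE 0.22, limma adjusted p = 0.00223), in 6 of 6 mice (exact two-sided sign-flip p = 0.0312, the smallest that 6 mice allow). Of all 6614 genes tested in that comparison 32.6% were called, 12.2% higher and 20.3% lower in Kupffer-like cells, and the median difference was -0.16. In 6 of 6 mice 11.3% of these genes were higher and 21% lower. Of the 7 members, 4 passed the filter on low levels (a mean over both groups of at least 0.5) and were called, Trem2 and Lgals3 as higher and Cd9 and Fabp5 as lower. Trem2 and Fabp5 passed the filter only through the group in which they were higher, so the number called is not read as a result. With no filter the same 4 were called. With RPKM averaged before the logarithm Trem2 (difference 5.42, limma adjusted p = 6.09e-05) and Lgals3 were still called, and Cd9 and Fabp5 were not. In monocyte-derived-like cells Trem2 was at 1.19 in ND1, 1.15 in ND2, 1.14 in ND3, 0 in HFD1, 1.80 in HFD2 and 1.41 in HFD3. HFD1, with 0 of 9 cells positive (upper limit 33.3%, from 3 counts), was the mouse in which the level lay below the other classes. The difference from the other classes was 0.86 (SE 0.31, limma adjusted p = 0.0589) and did not pass the test over all 6 mice, while it was 1.05 (limma adjusted p = 0.0336) without HFD1, 1.25 (limma adjusted p = 0.0477) without the dendritic-like cells and 4.10 (limma adjusted p = 0.0172) with RPKM averaged before the logarithm. Here too Trem2 passed the filter only through the group in which it was higher, and with no filter the adjusted p was 0.0773 by limma over all 6 mice. Of 7555 genes tested, 23.5% were called there, 21.3% as higher in monocyte-derived-like cells and 2.22% as lower, and 2 of the 4 members tested were among them, Lgals3 and Cd9, both higher. Kupffer-like and monocyte-derived-like cells were not told apart by Trem2, with a difference of 0.31 (95% interval -0.44 to 1.06, limma adjusted p = 0.506) that was -0.085 without the dendritic-like cells.

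Trem2 was detected in a minority of macrophages, on read numbers that varied from cell to cell. It was detected in 49 Kupffer-like cells, a mean share of 19.2% ± 8.93 (SD, n = 6 mice) that ran from 4.17% in ND2 to 28.2% in ND3. In T-like cells the mean share was 4.90% ± 1.84 and in B-like cells 8.95% ± 6.86. The positive Kupffer-like cells held a median of 31 reads and 244.03 RPKM, while 9 of the 49 rested on 1 read and 9 on 2 to 9 reads. In HFD3, 8 of the 11 positive Kupffer-like cells held under 10 reads, and the median of the 11 was 29.6 RPKM. At least 10 reads were found in 31 Kupffer-like cells, from all 6 mice, and in 6 monocyte-derived-like cells, from 5 mice. In the 1169 cells of the other named classes no cell had 10 reads of Trem2 (0 of 1169), and of the 68 that held a read 53 rested on 1. After each cell had been thinned to 30000 exon reads the mean share was 16.7% ± 9.22 in Kupffer-like cells (23 shallower cells left out), 12.6% ± 6.98 in monocyte-derived-like cells (none left out), 2.44% ± 2.74 in endothelial-like cells (47 left out) and 1.86% ± 1.53 in T-like cells (12 left out). In the order of the class means, Kupffer-like and monocyte-derived-like cells came first and did not differ beyond their spread (exact sign-flip p = 0.406), and the hepatocyte-like cells, next in the order (0.45 ± 0.69, n = 4 mice) had no cell with 10 reads.

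**Figure D1:**
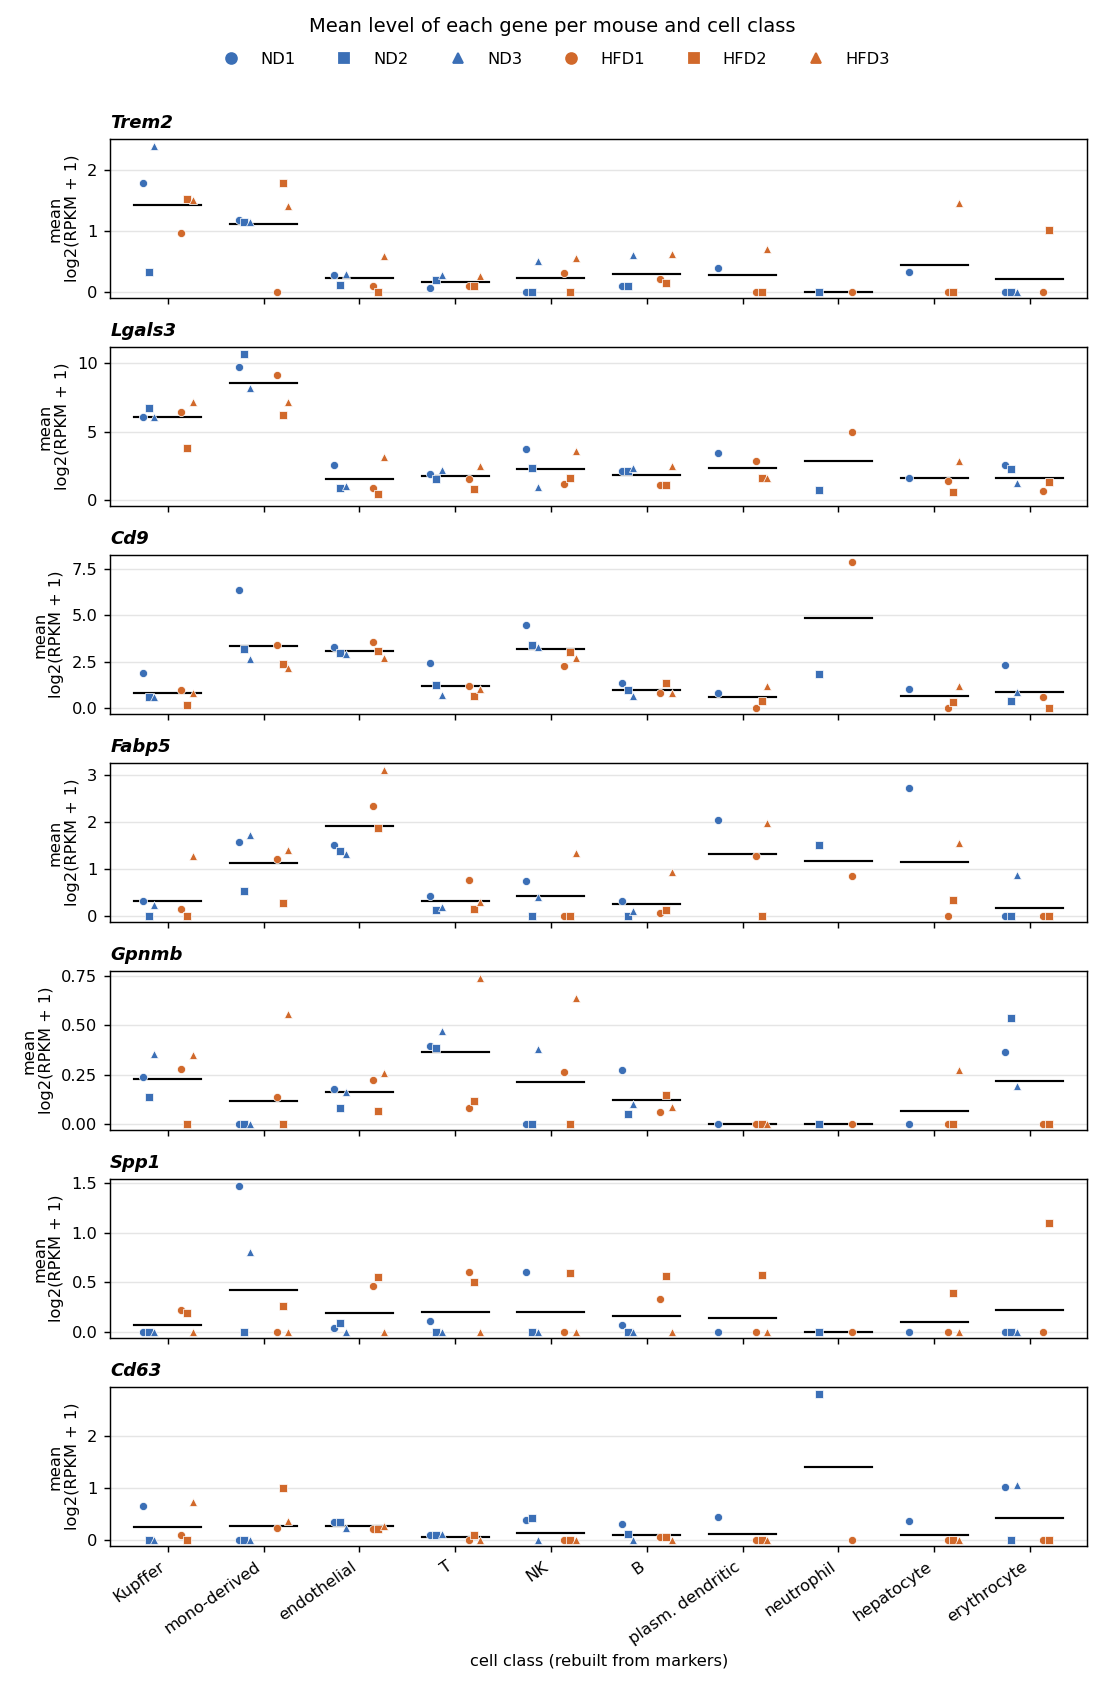
Mean log2(RPKM + 1) of each gene (vertical axes, scaled per gene) by cell class (horizontal axis). Each point is 1 mouse with at least 3 cells of the class, blue for normal and orange for high-fat diet, and the bar is the mean over mice. Trem2 and Lgals3 stand highest in the Kupffer-like and monocyte-derived-like classes, whereas Fabp5 is higher in endothelial-like cells (1.92) than in Kupffer-like cells (0.33).

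Lgals3 was the most abundant of the 7 genes in both macrophage classes. In Kupffer-like cells its level was 6.08 in ND1, 6.73 in ND2, 6.05 in ND3, 6.46 in HFD1, 3.82 in HFD2 and 7.19 in HFD3. In monocyte-derived-like cells it was 9.72 in ND1, 10.68 in ND2, 8.20 in ND3, 9.15 in HFD1, 6.19 in HFD2 and 7.16 in HFD3. HFD2 was lowest in both classes, and the Kupffer-like cells of HFD2 also had the fewest estimated reads (median 56463) and detected genes (median 1370) of the 6 mice. The part of depth in that value was not tested. The means were 6.05 ± 1.18 (SD, n = 6 mice) in Kupffer-like cells, 8.52 ± 1.66 in monocyte-derived-like cells and 1.88 ± 0.62 over the other classes, and neither macrophage class overlapped with the other classes in any mouse. The difference from the other classes was 4.17 (SE 0.27, limma adjusted p = 8.11e-07) for Kupffer-like cells and 6.64 (SE 0.48, limma adjusted p = 5.42e-07) for monocyte-derived-like cells, each in 6 of 6 mice.

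Between the macrophage classes Lgals3 was lower in Kupffer-like cells by 2.46 on the log2 scale (difference -2.46, SE 0.45, limma adjusted p = 0.000797). It was lower in 5 of 6 mice, the exception being HFD3, where the classes differed by 0.026, and the exact sign-flip p was 0.0625. Of the 7237 genes in that comparison 30% were called, 26.2% lower and 3.79% higher in Kupffer-like cells, 22.6% were lower in 6 of 6 mice, and the median difference of all genes was -0.62, so lower was the common direction there. Of the 4 members tested 2 were called, Lgals3 and Cd9, both lower. The call was lost when RPKM was averaged before the logarithm (-0.95, limma adjusted p = 0.350) and when each gene's own spread was used alone (limma adjusted p = 0.0556). Lgals3 was detected in a mean of 76.7% ± 11.3 of Kupffer-like and 92.8% ± 12.6 of monocyte-derived-like cells, with at least 10 reads in 52.7% and 84.9% of the cells. In the other classes it was detected in a mean of 38.1% to 57% of cells, but 3.76% of those 1169 cells had 10 reads, and 49.5% of the 493 positive cells rested on 1 read. Within the monocyte-derived-like class the macrophage-like and dendritic-like cells had the same mean over cells, 8.35 each.

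**Figure D2:**
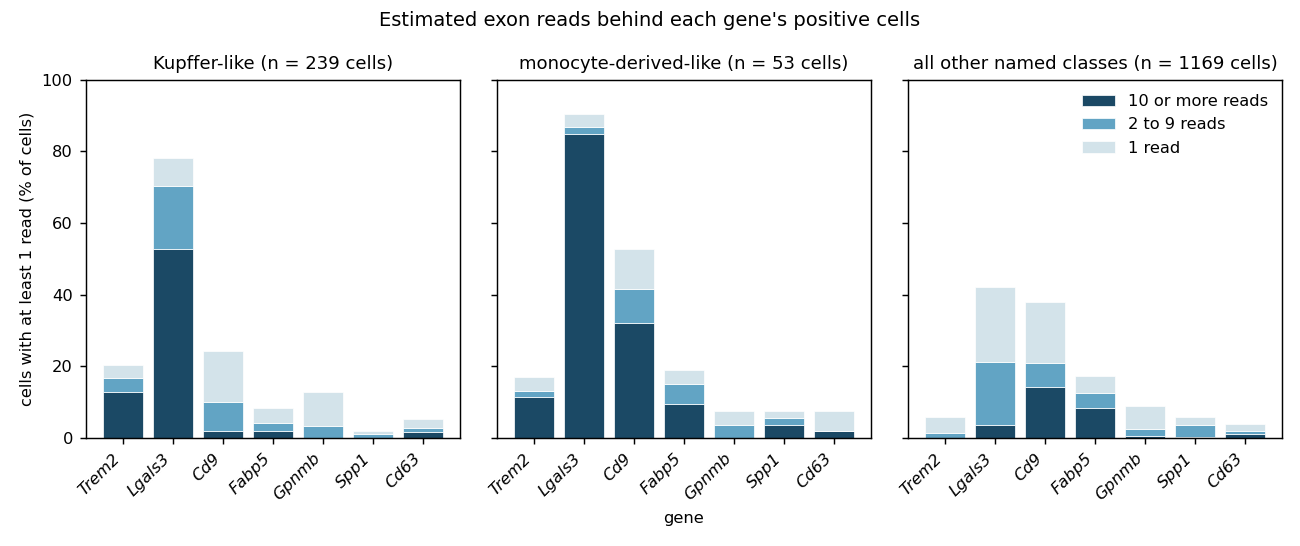
Share of cells (vertical axis, percent) with at least 1 estimated read of each gene, split by whether the cell held 1 read, 2 to 9 reads or 10 or more, in Kupffer-like, monocyte-derived-like and all other named cells pooled over mice. Trem2 had 10 reads in 13% of Kupffer-like cells and in 0 of the other cells, and the Gpnmb bars are nearly all of 1 read to 9 reads.

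Cd9 followed another order. It was low in Kupffer-like cells (0.83 ± 0.59, SD, n = 6 mice) and high in monocyte-derived-like cells (3.35 ± 1.56), NK-like cells (3.18 ± 0.74) and endothelial-like cells (3.08 ± 0.31). These 3 classes did not differ from their neighbours in the order beyond their spread (exact sign-flip p = 0.781 and 0.719, 6 mice), and the neutrophil-like mean above them (4.84 ± 4.27) rested on 2 mice. T-like cells, next in the order, were lower than endothelial-like cells by 1.87 in 6 of 6 mice (exact sign-flip p = 0.0312). In Kupffer-like cells the level was 1.89 in ND1, 0.57 in ND2, 0.56 in ND3, 0.95 in HFD1, 0.17 in HFD2 and 0.81 in HFD3. In monocyte-derived-like cells it was 6.39 in ND1, 3.20 in ND2, 2.66 in ND3, 3.37 in HFD1, 2.34 in HFD2 and 2.14 in HFD3. ND1 was highest in both classes, and the classes did not overlap. Cd9 was lower in Kupffer-like than in monocyte-derived-like cells by 2.53 (difference -2.53, SE 0.39, limma adjusted p = 0.000226) in 6 of 6 mice (exact sign-flip p = 0.0312). It was also lower than the unweighted mean of the other classes (difference -0.94, SE 0.16, limma adjusted p = 0.00102) in 6 of 6 mice. With RPKM averaged before the logarithm the latter call was lost (-1.09, limma adjusted p = 0.221). Of the single classes, erythrocyte-like cells (0.83) were level with Kupffer-like cells, and hepatocyte-like (0.63) and plasmacytoid dendritic-like cells (0.59) were lower.

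Most Kupffer-like cells with Cd9 held few reads of it. The gene was detected in a mean of 21.7% ± 15.5 of Kupffer-like cells against 31% ± 15.4 of T-like and 28.5% ± 10.1 of B-like cells, and 34 of its 58 positive Kupffer-like cells rested on 1 read. At least 10 reads were found in 2.09% of Kupffer-like cells, against 32.1% of monocyte-derived-like, 27.2% of endothelial-like, 25.5% of NK-like, 7.28% of T-like and 1.22% of B-like cells. Monocyte-derived-like cells were above the mean of the other classes by 1.58 (SE 0.42, limma adjusted p = 0.0134) in 6 of 6 mice, as were 18.7% of the genes tested. This difference was 4.14 in ND1 and 0.55 to 1.41 in the other mice, and the call was lost without the dendritic-like cells (0.92, limma adjusted p = 0.102). It was also lost without cells rich in granule genes (1.34, limma adjusted p = 0.0578), and the limma adjusted p was 0.124 with no filter on low levels, 0.127 with the gene's own spread alone and 0.0697 with no mouse block. Cd9 was detected in 10 of 15 dendritic-like cells (mean over cells 5.24) and in 17 of 38 macrophage-like cells (2.42), and all 4 dendritic-like cells of ND1 carried it at a mean of 8.26, as did both of HFD2 at 9.64.

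Fabp5 had its highest mean in endothelial-like cells. Its level was 1.92 ± 0.69 (SD, n = 6 mice) in endothelial-like cells, 1.12 ± 0.59 in monocyte-derived-like cells and 0.33 ± 0.48 in Kupffer-like cells, and it had at least 10 reads in 18.3%, 9.43% and 2.09% of the cells of these classes. In Kupffer-like cells it was at 0.31 in ND1, 0 in ND2, 0.22 in ND3, 0.15 in HFD1, 0 in HFD2 and 1.28 in HFD3. Between endothelial-like and monocyte-derived-like cells in the order of means lay the plasmacytoid dendritic-like (1.32 ± 0.95, 4 mice), neutrophil-like (1.18 ± 0.46, 2 mice) and hepatocyte-like cells (1.16 ± 1.24, 4 mice), and the step from endothelial-like to plasmacytoid dendritic-like cells did not exceed the spread (exact sign-flip p = 0.250, 4 mice). Among the Kupffer-like cells HFD3 stood above the rest, with 13 of its 44 Kupffer-like cells positive, and HFD3 was also the highest mouse for Fabp5 in endothelial-like (3.10), NK-like (1.34) and B-like cells (0.93), but not in the other classes. The T-like mean (0.33) was level with that of Kupffer-like cells, and the B-like (0.26) and erythrocyte-like means (0.17) were lower. Fabp5 was detected in a mean of 7.40% of Kupffer-like, 8.36% of T-like and 8.41% of B-like cells. Kupffer-like cells were below the unweighted mean of the other classes by 0.46 (difference -0.46, SE 0.14, limma adjusted p = 0.0261) in 6 of 6 mice. That call was lost with RPKM averaged before the logarithm (-0.66, limma adjusted p = 0.301), without ND1 (-0.40, limma adjusted p = 0.0907), without ND2 (-0.45, limma adjusted p = 0.05005) or without HFD1 (-0.45, limma adjusted p = 0.0680), and without HFD3 the gene fell under the filter on low levels.

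In monocyte-derived-like cells Fabp5 was at 1.57 in ND1, 0.52 in ND2, 1.72 in ND3, 1.22 in HFD1, 0.27 in HFD2 and 1.40 in HFD3, above the Kupffer-like cells of the same mouse in 6 of 6 mice (exact sign-flip p = 0.0312). The difference of -0.79 (SE 0.33) did not pass over all genes (limma adjusted p = 0.0786). Fabp5 passed the filter on low levels in this comparison only through the monocyte-derived-like cells. The difference was -1.55 (limma adjusted p = 0.0342) without the dendritic-like cells. All 10 positive cells were macrophage-like (10 of 38) and none was dendritic-like (0 of 15, upper limit 20%). Of these 10 cells, 7 lay in a sub-cluster of 11 cells led by Lyz2, Ifi27l2a, Ms4a4c and Fn1, where all 11 cells had Lgals3 and 3 had Trem2. That sub-cluster was singled out after its values were seen.

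**Figure D3:**
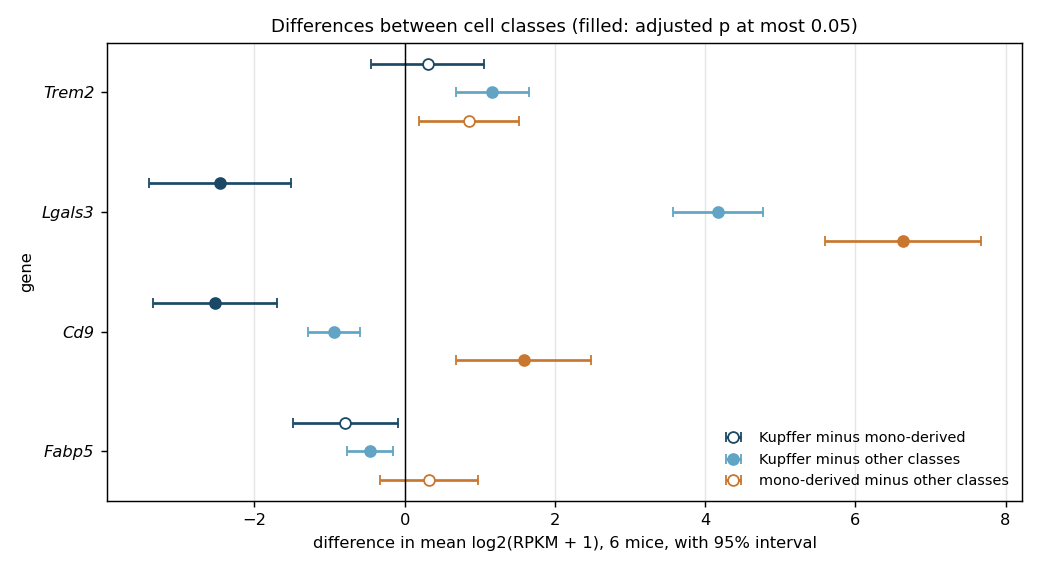
Differences in mean log2(RPKM + 1) between cell classes (horizontal axis) for the 4 genes that passed the filter on low levels, with 95% limma intervals over 6 mice, filled where the adjusted p was at most 0.05. Lgals3 lies at 4.17 and 6.64 above the other classes in the Kupffer-like and monocyte-derived-like cells, while Cd9 lies at -0.94 and 1.58.

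Gpnmb, Spp1 and Cd63 were too low for the test. Their class means stayed under the filter, a mean log2(RPKM + 1) of 0.5, in every comparison, so 4 of the 7 genes were tested between classes. Gpnmb was at 0.24 in ND1, 0.14 in ND2, 0.36 in ND3, 0.28 in HFD1, 0 in HFD2 and 0.35 in HFD3 in Kupffer-like cells. It was detected in 26 of them, a mean share of 9.85% ± 6.83 against 10.1% ± 6.81 in T-like and 6.38% ± 4.5 in B-like cells. That share lay between those of the B-like and the T-like cells. Of 31 Kupffer-like cells with any Gpnmb read, 23 rested on 1 read, and no cell of either macrophage class had 10 reads. The 8 cells that did were T-like, from ND1, ND2, ND3 and HFD3, at 14.6 to 359.8 RPKM. All 8 belonged to 1 T-like cluster led by Cd3g, Cd3d, Cd3e, Ms4a4b and Nkg7.

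Spp1 was detected in 5 Kupffer-like cells, none with 10 reads, and in 4 of 53 monocyte-derived-like cells. All 4 of the latter were dendritic-like (2 in ND1, 1 in ND3 and 1 in HFD2), and 0 of 38 macrophage-like cells had it (upper limit 7.89%). The strongest Spp1 cells of the data were 2 cells in the endothelial-like class, at 14791 RPKM in HFD1 and 12167 RPKM in HFD2. These 2 cells also carried 5 and 6 of the 6 bile duct markers at 100 RPKM or more, among them Krt19 at 349.1 and 1923 RPKM and Epcam at 236 and 810 RPKM, so their class label went against their leading genes. No other cell of the 1470 had 3 of these markers at that level.

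Low Spp1 counts were most frequent in the same 2 mice. Spp1 was found with 1 to 9 reads in 28 cells of HFD1 (9.69% of its cells) and 34 cells of HFD2 (10.8%), against 7 cells of ND1 (2.27%), 2 cells of ND2 and 0 cells of ND3 and HFD3. A positive cell was found in all 10 named classes in HFD2, in 4 classes in HFD1 and in 5 classes in ND1. In HFD3 no cell of any class had the gene (upper limit 2.01%). The 5 positive Kupffer-like cells, 4 from HFD1 and 1 from HFD2, thus came from the 2 mice in which a cell with bile duct markers was sequenced. The part of those cells in the low counts was not tested.

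**Figure D4:**
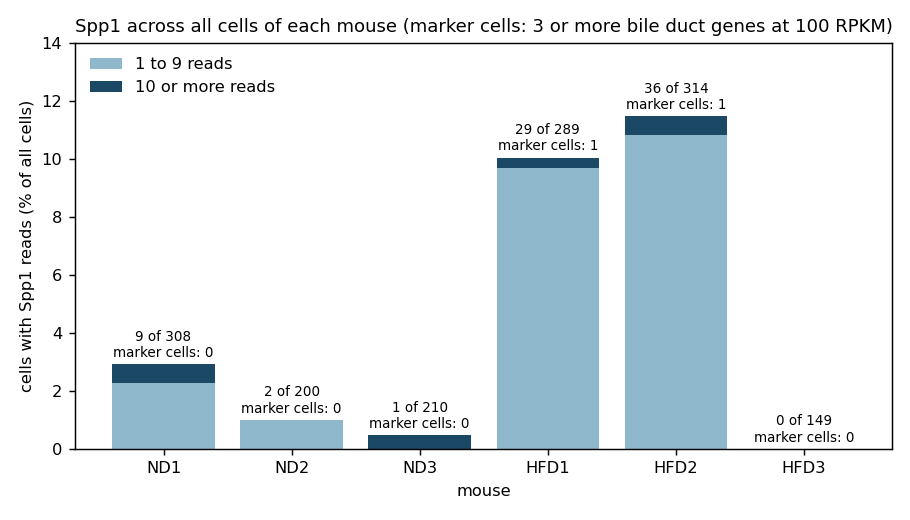
Share of all cells of each mouse (vertical axis, percent) with estimated Spp1 reads, split into 1 to 9 reads and 10 or more, with the number of positive cells above the bars. HFD1 (10%) and HFD2 (11.5%) stand above the other 4 mice and each held 1 cell with at least 3 of the 6 bile duct markers at 100 RPKM.

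Cd63 was rare in both macrophage classes. In Kupffer-like cells it was at 0.67 in ND1, 0.10 in HFD1, 0.73 in HFD3 and 0 in ND2, ND3 and HFD2, with 13 cells positive and 4 with 10 reads. In monocyte-derived-like cells 4 of 53 were positive and 1 had 10 reads. Cells with 10 reads were also found among the endothelial-like (10 of 459) and neutrophil-like cells (3 of 14). The 9 unnamed cells held 4 with Cd63, all 4 with at least 10 reads and a median of 175.5. Cd63 led that sub-cluster together with Chmp5, Serpinb1a and Fut7, although it had not been used to form it.

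The number of the 7 genes detected per cell ran from 0 to 4 in Kupffer-like cells and from 0 to 5 in monocyte-derived-like cells. Of the Kupffer-like cells, 11.3% had none, 43.5% had 1, 32.2% had 2, 10% had 3 and 2.93% had 4 of the genes, and no cell had 5 or more. Of 53 monocyte-derived-like cells, 3 had none, 14 had 1, 18 had 2, 17 had 3 and 1 had 5. Cells with 3 or more genes were 13 of 51 Kupffer-like cells in ND1 and 13 of 44 in HFD3. They were 3 of 52 in HFD1, 2 of 39 in ND3, 0 of 24 in ND2 and 0 of 29 in HFD2. The Kupffer-like cells of ND1 and HFD3 had the most detected genes (medians of 2641 and 3084) and those of ND2 and HFD2 the fewest (2089 and 1370). Those of HFD1 had the most estimated reads (median 162567). The part of depth in these counts was not tested. Of the 49 Trem2-positive Kupffer-like cells, 36 (73.5%) had Lgals3, 12 (24.5%) had Cd9, 6 (12.2%) had Fabp5 and 4 (8.16%) had Gpnmb. The mean share of Kupffer-like cells with Lgals3 was 76.7%.

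The comparison of the diets asked whether the genes moved with 9 weeks of high-fat feeding. In Kupffer-like cells 0 of 6019 genes were called (0% by limma with adjusted p at most 0.05, 2.31% at an unadjusted p under 0.05, 2 genes when limma used a mean-variance trend), and none of the 3 members tested was among them. Trem2 averaged 1.5 ± 1.06 on the normal and 1.34 ± 0.32 on the high-fat diet (SD, n = 3 mice each), a difference of -0.17 with a 95% interval of -1.34 to 1.01 (exact permutation p = 0.8). Lgals3 differed by -0.47 (interval -2.20 to 1.26, exact permutation p = 0.9) and Cd9 by -0.37 (interval -1.38 to 0.64, exact permutation p = 0.6). With RPKM averaged before the logarithm Trem2 was 0.85 higher on the high-fat diet (limma adjusted p = 0.985). The sign of each turned when a certain mouse was left out, to 0.28 for Trem2 without ND3 and 0.020 without HFD1, to 0.53 for Lgals3 without HFD2 and to 0.075 for Cd9 without ND1. Trem2 was detected in 25 Kupffer-like cells on the normal and 24 on the high-fat diet, mean shares of 19.3% ± 13.2 and 19.2% ± 5.10. An exact permutation test of 3 mice against 3 cannot give a p under 0.1. The median difference over all genes tested was -0.14.

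In monocyte-derived-like cells 0 of 7779 genes were called (0%, 2.8% at an unadjusted p under 0.05, 1 gene with the trend), and none of the 4 members tested was called. Lgals3 had the largest difference of the 4, -2.03 (interval -3.90 to -0.16, exact permutation p = 0.2, limma adjusted p = 0.999), with diets that overlapped, as HFD1 (9.15) lay above ND3 (8.20). Cd9 differed by -1.46 (exact permutation p = 0.3) and by -0.31 without ND1. Trem2 differed by -0.092 (interval -1.61 to 1.43) and by 0.44 without HFD1, and Fabp5 by -0.31 and by 0.038 without HFD2. Cd63 was found in 0 of 24 cells on the normal diet (upper limit 12.5%) and in 4 of 29 on the high-fat diet, at 0.23 in HFD1, 1.0 in HFD2 and 0.36 in HFD3. The diets did not overlap (exact permutation p = 0.1, the smallest possible), as for 2.31% of the genes tested in that direction, and 3 of the 4 cells rested on 1 read. The diet difference of Kupffer-like cells minus that of monocyte-derived-like cells was called for 0 of 7237 genes (0%, 3.7% at an unadjusted p under 0.05), and was 1.56 for Lgals3 (interval -0.20 to 3.33).

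Fabp5 in endothelial-like cells was the member whose diets did not overlap among those that passed the filter. It was at 1.51 in ND1, 1.39 in ND2 and 1.31 in ND3 against 2.33 in HFD1, 1.88 in HFD2 and 3.10 in HFD3. The difference was 1.03 (SE 0.35, interval 0.24 to 1.83, exact permutation p = 0.1, the smallest possible), and it did not pass over all 7206 genes (limma adjusted p = 0.9999). No gene of that comparison was called (0%, 2.1% at an unadjusted p under 0.05, 3 genes with the trend), and 1.28% of the genes tested were higher on the high-fat diet without overlap. Fabp5 was detected in 51 endothelial-like cells on the normal and 84 on the high-fat diet, mean shares of 22.7% ± 1.79 and 37.4% ± 9.43. After thinning to 30000 reads the shares were 21.7%, 18.2% and 17.1% on the normal and 30.3%, 24.6% and 38% on the high-fat diet, which again did not overlap. Leaving out a mouse gave 0.70 to 1.32.

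**Figure D5:**
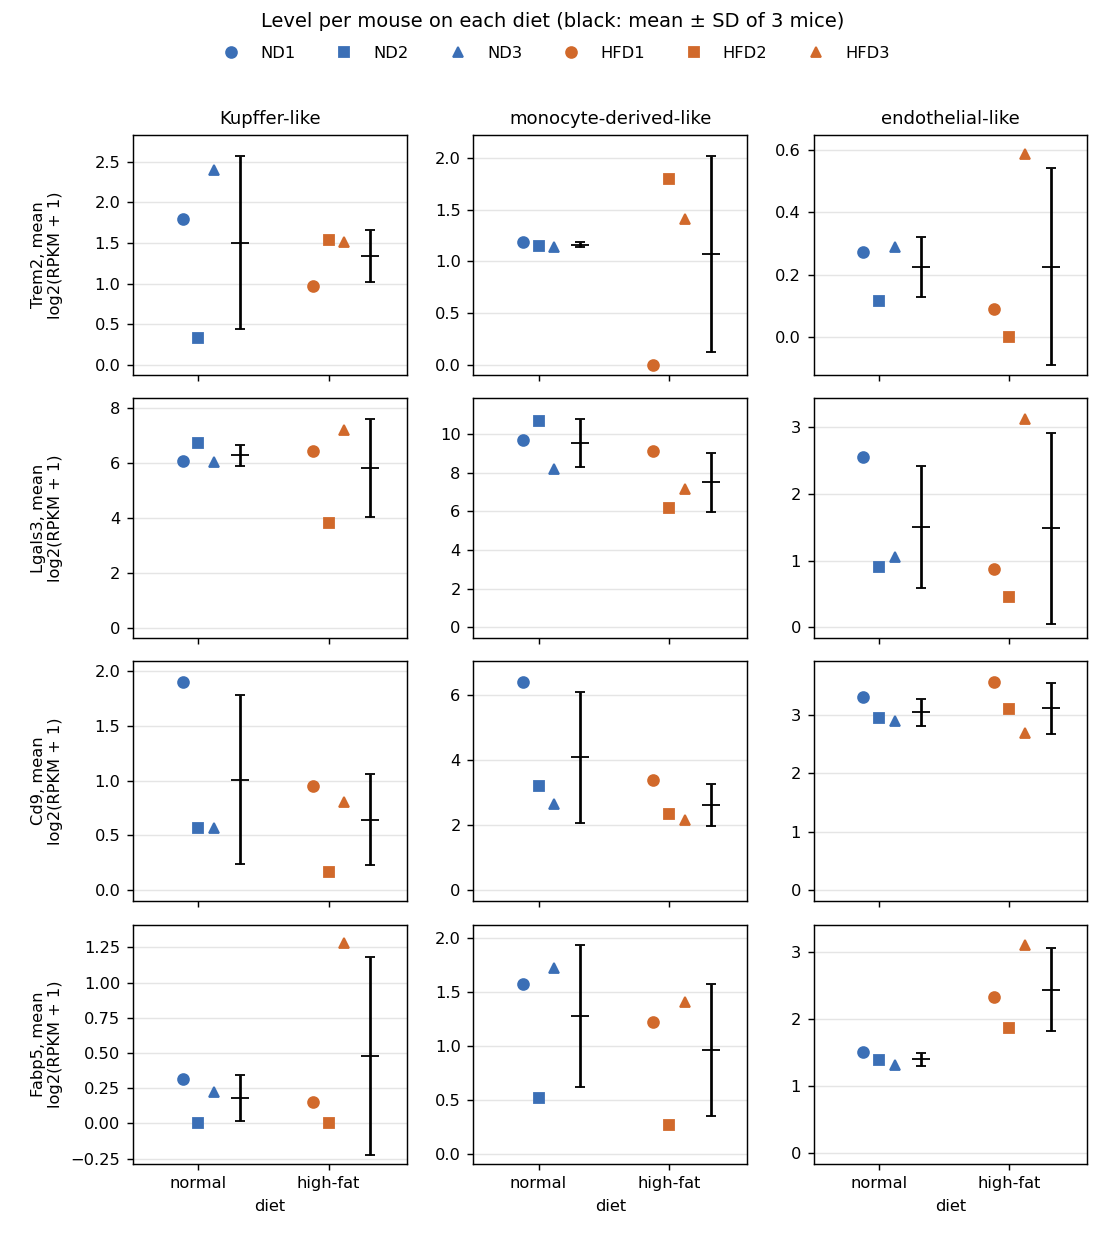
Mean log2(RPKM + 1) per mouse (vertical axes) on the normal and high-fat diet for 4 genes (rows) in 3 cell classes (columns), with the mean ± SD of 3 mice in black. The diets overlap in every panel except Fabp5 in endothelial-like cells, where 1.31 to 1.51 stand against 1.88 to 3.10.

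Of the partners of TREM2, the adaptor Tyrobp was abundant in Kupffer-like cells, while the other partners lay between 1.64 (Plcg2) and 3.44 (Hcst) in mean log2(RPKM + 1). The list held the adaptors Tyrobp (DAP12) and Hcst, the downstream enzymes Syk, Plcg2 and Inpp5d, and the sheddases Adam10 and Adam17. Tyrobp, singled out after its values were seen, was at 11.4 in Kupffer-like, 11.5 in monocyte-derived-like and 6.60 in the other cells, and was called against the other cells in both (4.81, limma adjusted p = 6.64e-08, and 4.89, limma adjusted p = 1.25e-06). Of the 7 genes, 3 were higher and 0 lower in Kupffer-like than in the other cells (12.2% and 20.3% over all genes, list median 0.40 against -0.16). In monocyte-derived-like cells 5 were higher and 0 lower (21.3% and 2.22% over all genes, list median 1.91 against 0.47). Between the macrophage classes 3 were lower in Kupffer-like cells and 0 higher (26.2% and 3.79% over all genes), with a list median of -0.88 against -0.62 over all genes. Those 3 were the phospholipase Plcg2 (-2.87), the lipid phosphatase Inpp5d (-2.70) and the kinase Syk (-1.51). Of the 5 other TREM receptors, Treml4 was at 3.59 ± 0.87 in Kupffer-like, 2.67 ± 1.52 in monocyte-derived-like and 0.59 in the other cells, and was called against the other cells in both (2.99, limma adjusted p = 6.80e-06, and 2.07, limma adjusted p = 0.00397). Treml4 and Trem3 (0.05 and 1.23) did not pass between the macrophage classes.

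Of the TREM2 ligands, 3 of 4 were in the test and all 3 were higher in Kupffer-like than in monocyte-derived-like cells, where 3.79% of all genes were called higher. Apoe, the apolipoprotein that macrophages secrete, was at 14.6 ± 0.22 against 9.63 ± 0.81 (SD, n = 6 mice, difference 4.99, limma adjusted p = 1.01e-07). Clu differed by 1.45 and Apoa1 by 4.93. Apoa1 and the fatty acid binding protein Fabp1 (4.10) are hepatocyte genes, and Apoe, Clu and the growth factor Igf1 are also made by hepatocytes. The mean level of 8 hepatocyte markers (7 of them detected in at least 20% of Kupffer-like cells, 4 of them in monocyte-derived-like cells) ran from 2.57 to 5.81 by mouse in Kupffer-like cells and from 0.77 to 2.31 in monocyte-derived-like cells. The part of hepatocyte RNA in these values was not tested. Of the osteopontin receptors 2 of 6 tested were higher in Kupffer-like cells, the integrin chains Itga9 (2.30) and Itgb5 (1.89), and 2 were lower, among them Itga4 (-3.80). Of all genes 3.79% were higher and 26.2% lower in that comparison, and the list median was -0.68 against -0.62.

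Among relatives of the members, the brain-type fatty acid binding protein Fabp7 was higher in Kupffer-like than in monocyte-derived-like cells (4.06 ± 1.04 against 0.55 ± 0.49, difference 3.51) and Fabp4, the adipocyte type, was lower (-1.40). Of the tetraspanins, Cd81 was higher (4.0) and Cd53 lower (-1.45), while 8 of 10 were not called and Tspan14 differed by -1.06 (limma adjusted p = 0.0514). Over all genes 3.79% were called higher and 26.2% lower in this comparison. Of the galectin list, Lgals3bp, which binds galectin-3, was higher (2.86), as was Lgals9 (1.39), and Lgals1 was lower (-3.30).

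The lipid and lysosome genes that are often reported with these members were mostly higher in Kupffer-like cells than in the other classes. In that comparison 16 of 18 tested were higher and 1 lower, with a list median of 2.88 (-0.16 over all genes, 12.2% of which were called higher). Against monocyte-derived-like cells 8 of 17 were higher and 2 lower (list median 0.84, over all genes -0.62, 3.79% called higher and 26.2% lower). Examples were Igf1 (5.20 ± 0.85 against 0.44 ± 0.34, difference 4.76), the lysosomal protease Ctsd (10.4 ± 0.39 against 6.0 ± 0.67, difference 4.37) and lipoprotein lipase Lpl (5.71 ± 0.89 against 1.59 ± 0.67, difference 4.12). Of the transcription factors linked to the programme, Nr1h3, the oxysterol receptor LXR alpha, was higher in Kupffer-like cells (3.57), and the lysosomal regulators Tfe3 (-1.77) and Tfeb (-1.43) were lower. In the diet comparisons none of these genes was called in any of the 3 classes.

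The genes most like each member were found from the correlation over 51 mouse-by-class means, among 2832 genes. The points share mice and depth, so the values are a description. Trem2 was closest to Lrp1 (Pearson r = 0.84), a lipoprotein receptor, then to the macrophage growth factor receptor Csf1r (0.75) and to Emr4 (0.74). Among the genes closest to Lgals3 were Clec4a1 (0.89) and Lrrc25 (0.88). Cd9 was closest to Anxa1 (0.79), Dlgap4 (0.74) and Orai1 (0.69), and Gpr146 (0.73) and Ncoa3 (0.65) were among those closest to Fabp5. For the rarer members the nearest genes included the T cell genes Lef1 (0.60), Bcl11b (0.56) and Cd5 (0.56) for Gpnmb, Acpp (0.77), Scnn1a (0.74) and Ovgp1 (0.74) for Cd63, and Rel (0.41) and Gusb (0.36) for Spp1.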

How the data were processed

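The authors sorted single liver cells into 384-well plates, sequenced them by Smart-seq2, aligned the reads to mm10 with STAR and deposited RPKM values computed from uniquely mapped reads and RefSeq genes. Cells failing their quality filters and Scrublet doublets had been removed before deposit. Demultiplexing used bcl2fastq, per the submitters' processing notes.

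The members, gene lists and comparisons were chosen with earlier results of these data known. No annotation of the cells was used here, so classes were rebuilt by clustering (1000 variable genes, 20 principal components, without the members and their companion genes) and naming from marker lists. The clustering settings were varied after clusters had been seen and were judged on class markers, while the members' overall detection, Trem2 and Lgals3 in one mixed cluster, and Cd63 and Lgals3 among leading genes had also been seen. The closeness of class sizes to those of the study was noticed too.

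Values were averaged as log2(RPKM + 1) per mouse and class with at least 3 cells, a scale that understates changes of low genes. The other classes entered as the unweighted mean over classes. Genes with a mean of at least 0.5 were tested with limma (3.58.1, R 4.3.3), with the mouse as block between classes, and Benjamini-Hochberg adjustment over all genes. Exact sign-flip and permutation tests were two-sided. Reads were estimated from the steps of the low RPKM values, as 77.3% of low values lay near a whole read (median over cells), against 13.3% with shuffled lengths. The thinning to 30000 reads used these estimates, and the limits given for a count of 0 are 3 counts over the total and cover counting error only. Beside the 7 members, the text names up to 3 genes of each companion list with the smallest adjusted p between Kupffer-like and monocyte-derived-like cells, any that passed in a diet comparison, and the 3 genes most correlated with each member, some of which are not reported here. Scripts were tested on simulated data. Python 3.11.15, pandas 2.3.3, scikit-learn 1.9.0 and scipy 1.17.1 were used.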

Additional observations from a re-analysis of the deposited data

Results flagged for a closer look

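Of 21 groups of 6 mice checked for a mouse far from the rest, 2 stood out, and chance marks about 1 in 20. The Spp1 level of Kupffer-like cells minus that of the other classes was -0.42 in HFD2, where the other mice ran from -0.12 to 0.05. HFD2 was also the mouse with the largest share of cells with 1 to 9 Spp1 reads (10.8%). The Cd9 level of monocyte-derived-like cells minus that of the other classes was 4.14 in ND1, where the other mice ran from 0.55 to 1.41.

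The 9 unnamed cells entered no comparison and are listed because members were detected in them. Cd9 was detected in 44.4% of them (3 cells with at least 10 reads), Cd63 in 44.4% (4 cells) and Lgals3 in 55.6% (4 cells). The mean Lgals3 shares of B-like (50.6%) and plasmacytoid dendritic-like cells (57%) were near that of the unnamed cells, while 2.86% and 18.2% of the cells of these classes had at least 10 reads.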

How the results depend on the processing

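Of the recomputed differences of members, 384 kept their direction and side of the threshold, 14 lost the call, 8 gained it and 17 changed sign, all 17 uncalled. Kupffer-like minus monocyte-derived-like cells gave 2172 genes (274 higher, 1898 lower), but 751 (469 higher, 282 lower) with RPKM averaged before the logarithm, which moved the median of all genes from -0.62 to -0.02. It gave 1383 without dendritic-like cells, 1138 with no filter, 951 with each gene's own spread, 1413 with no mouse block and 1546 to 2077 leaving out a mouse. Members called fell from 2 to 1 with RPKM averaged and with own spread, and Trem2 was -0.085 without dendritic-like cells. Kupffer-like minus the other classes gave 2155 genes, 1054 with no mouse block (520 higher, 534 lower) and 1632 to 2111 leaving out a mouse, and members called fell from 4 to 2 with RPKM averaged and with a filter at a mean of 1, or 3 to 4 leaving out a mouse. Monocyte-derived-like minus the other classes gave 1777 genes, 1116 with RPKM averaged, 857 with no filter, 637 with own spread, 1154 with no mouse block and 1336 to 1714 leaving out a mouse. Its members called fell from 2 to 1 (Cd9 lost) with no filter, with own spread and with no mouse block, and were 2 to 3 leaving out a mouse.

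The diet gave 0 genes in each class. With a mean-variance trend it gave 2, 1 and 3 in Kupffer-like, monocyte-derived-like and endothelial-like cells, and in Kupffer-like cells it gave 1 with 10 principal components, 1 with a filter at a mean of 1 and 0 to 1 leaving out a mouse. In Kupffer-like cells Trem2 was 0.85 with RPKM averaged. Leaving out a mouse gave -0.75 to 0.28 for Trem2, -0.59 to 0.075 for Cd9 and -1.15 to 0.53 for Lgals3. In monocyte-derived-like cells Trem2 was 0.10 without cells rich in granule genes and -0.46 to 0.44 leaving out a mouse, and Fabp5 was -0.68 to 0.038. In endothelial-like cells Lgals3 was 0.0097 with cells rescaled to the same sum, 0.13 with cells assigned by marker level and -0.83 to 0.51 leaving out a mouse, and Cd9 was -0.18 by marker level and -0.16 to 0.28. The cause of these changes was not tested. The share of Kupffer-like cells with Gpnmb was 9.85%, and 0.748% at 10 RPKM.

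Mice of the 2 diets share only a replicate number. Same-numbered mice correlated at -0.04 to 0.08 in Kupffer-like, -0.01 to 0.08 in monocyte-derived-like and -0.15 to 0.12 in endothelial-like cells, and 2, 4 and 2 of 6 mice were closest to their own number. With the replicate number as block 0 genes were called in each diet comparison. The settings with 6 clusters in the second step and with thinned reads were chosen after the data were seen.

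With 3 mice per diet, 7 to 13 monocyte-derived-like cells per mouse and few reads behind the rare members, diet differences were hard to detect at this depth, also large differences in monocyte-derived-like cells, where the interval for Trem2 ran from -1.61 to 1.43. Classes rebuilt here may differ from those of the study.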

Other observations

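In monocyte-derived-like cells Lgals3 was detected in 48 of 53 cells. Among the cells with another member it was detected in 8 of 9 with Trem2, 26 of 27 with Cd9, 10 of 10 with Fabp5 and 3 of 4 with Cd63, which was not tested against the share of the class. All 4 Spp1-positive cells of that class also had Cd9.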
